A study of Saccharomyces cerevisiae with 9 samples.

Results

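Sulfur assimilation and the synthesis of methionine and cysteine are described here by 39 genes of the budding yeast Saccharomyces cerevisiae, of 5205 genes in the deposited count table. The genes were chosen by name from a list of pathway genes, with differential expression results of the same 9 libraries already known, and all 39 were found by locus tag. They were split into 8 genes of sulfate reduction, 6 of homocysteine and methionine synthesis, 4 of transsulfuration, 5 of the S-adenosylmethionine (SAM) cycle, 10 transporters and enzymes for other sulfur sources, and 6 regulators. All 39 passed the filter on low counts.

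The libraries were poly(A)-selected RNA of cultures of strain W303, all held for 15 days in stationary phase in the rich medium YPD without dilution. There were 3 biological replicates each of cdc13-K504E grown as white colonies (K504E-white), cdc13-K504E grown as red colonies (K504E-red) and wild type grown as red colonies (WT-red). Cdc13 is a telomere-binding protein, and red colour in W303 marks cells that cannot complete adenine synthesis. No white wild-type libraries were analysed here, so colour and mutation cannot be told apart in K504E-white against WT-red. The labels do not say how many clones the white or red colonies came from.

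Yeast cells take up sulfate, activate it with ATP, and reduce it through sulfite to sulfide, which is joined to O-acetylhomoserine to make homocysteine. Homocysteine is methylated to methionine or turned into cysteine by transsulfuration, and methionine is activated to SAM, the methyl donor of the cell. The activator Met4 does not bind DNA by itself and is brought to these genes by Cbf1, Met28, Met31 and Met32. The ubiquitin ligase subunit Met30 restrains Met4 when sulfur amino acids are plentiful.

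Total counts were 33712194 to 34634199 in K504E-white, 27388755 to 33228022 in K504E-red and 28163511 to 34564131 in WT-red. CDC13 messenger was 7.62 ± 0.178 FPKM in K504E-white, 9.88 ± 1.87 FPKM in K504E-red and 9.04 ± 0.704 FPKM in WT-red (SD, n = 3 each); a gene count cannot show the amino acid change. ADE2, whose loss gives the red pigment, was 271 ± 9.28 FPKM in K504E-white, 73.96 ± 5.08 FPKM in K504E-red and 53.2 ± 5.67 FPKM in WT-red. Levels below are the deposited FPKM, fragments scaled by gene length and library size, given for replicates 1, 2 and 3 in that order. Fold changes are edgeR's log2 estimates from the counts of all genes, and a gene is called when its adjusted p-value is under 0.05. Each value is an average over a culture, so fewer expressing cells and less RNA per cell cannot be told apart.

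In K504E-white against K504E-red, most sulfur genes were lower. Of the 39 genes, 33 were called lower and 3 higher, and MET7, MET12 and MET31 were not called. Of all 5172 genes tested, 27.3% were called lower and 27.2% higher. The fall reached at least 2-fold in 17 sulfur genes, a size and direction called in 2.8% of all genes, and in 0 of them was a rise that large (1.76% of all genes). The median log2 fold change of the 39 genes was -0.87, and over all genes tested it was -0.004. The PAPS reductase gene MET16 was 5.71-fold lower, the methionine permease gene MUP3 5.08-fold, the cystathionine beta-lyase gene STR3 4.83-fold and the sulfate permease gene SUL2 3.57-fold. The genes called higher were MET13, SAH1 and CBF1.

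K504E-white against WT-red gave a similar count, with 35 of the 39 genes called lower, 1 higher, and MET12, SAH1 and CBF1 not called, where 23.5% of all genes were called lower and 23.3% higher. In 19 of them the fall was at least 2-fold, which 1.82% of all genes showed, and 0 rose that far (1.72% of all genes). The median log2 fold change was -0.99 over the 39 genes and -0.007 over all genes. STR3 was 7.48-fold lower, SEO1, a permease-like gene, 4.91-fold, MET16 4.86-fold and MUP3 3.96-fold. MET13, which encodes a methylenetetrahydrofolate reductase, was the gene called higher. Both comparisons of K504E-white share its 3 libraries, so their counts are not independent.

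Between K504E-red and WT-red, sulfur genes were called in both directions. Here 16 were called lower, 5 higher and 18 not called, beside 21.7% of all genes called lower and 25.8% higher. Only SEO1 fell at least 2-fold, as did 0.58% of all genes, and 0 sulfur genes rose that far (0.116% of all genes). The median log2 fold change was -0.062, against 0.034 over all genes. The called rises were those of the cysteine transporter gene YCT1 (1.82-fold), STR2, MUP3, SUL2 and MET16.

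The list was drawn up with these contrasts known, so the counts describe the genes and nothing is read from them about whether the pathway stands apart. Of the 39 genes, 14 were called lower in both mutant groups against WT-red, 16 were called lower in K504E-white and not called in K504E-red, and 5 were called lower in K504E-white and higher in K504E-red. All 16 and all 5, and 12 of the 14, were also called lower in K504E-white against K504E-red. The 3 contrasts share libraries in pairs. The share of all genes with each of these joint patterns was not counted, so the counts have no background beside them.

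**Figure D1:**
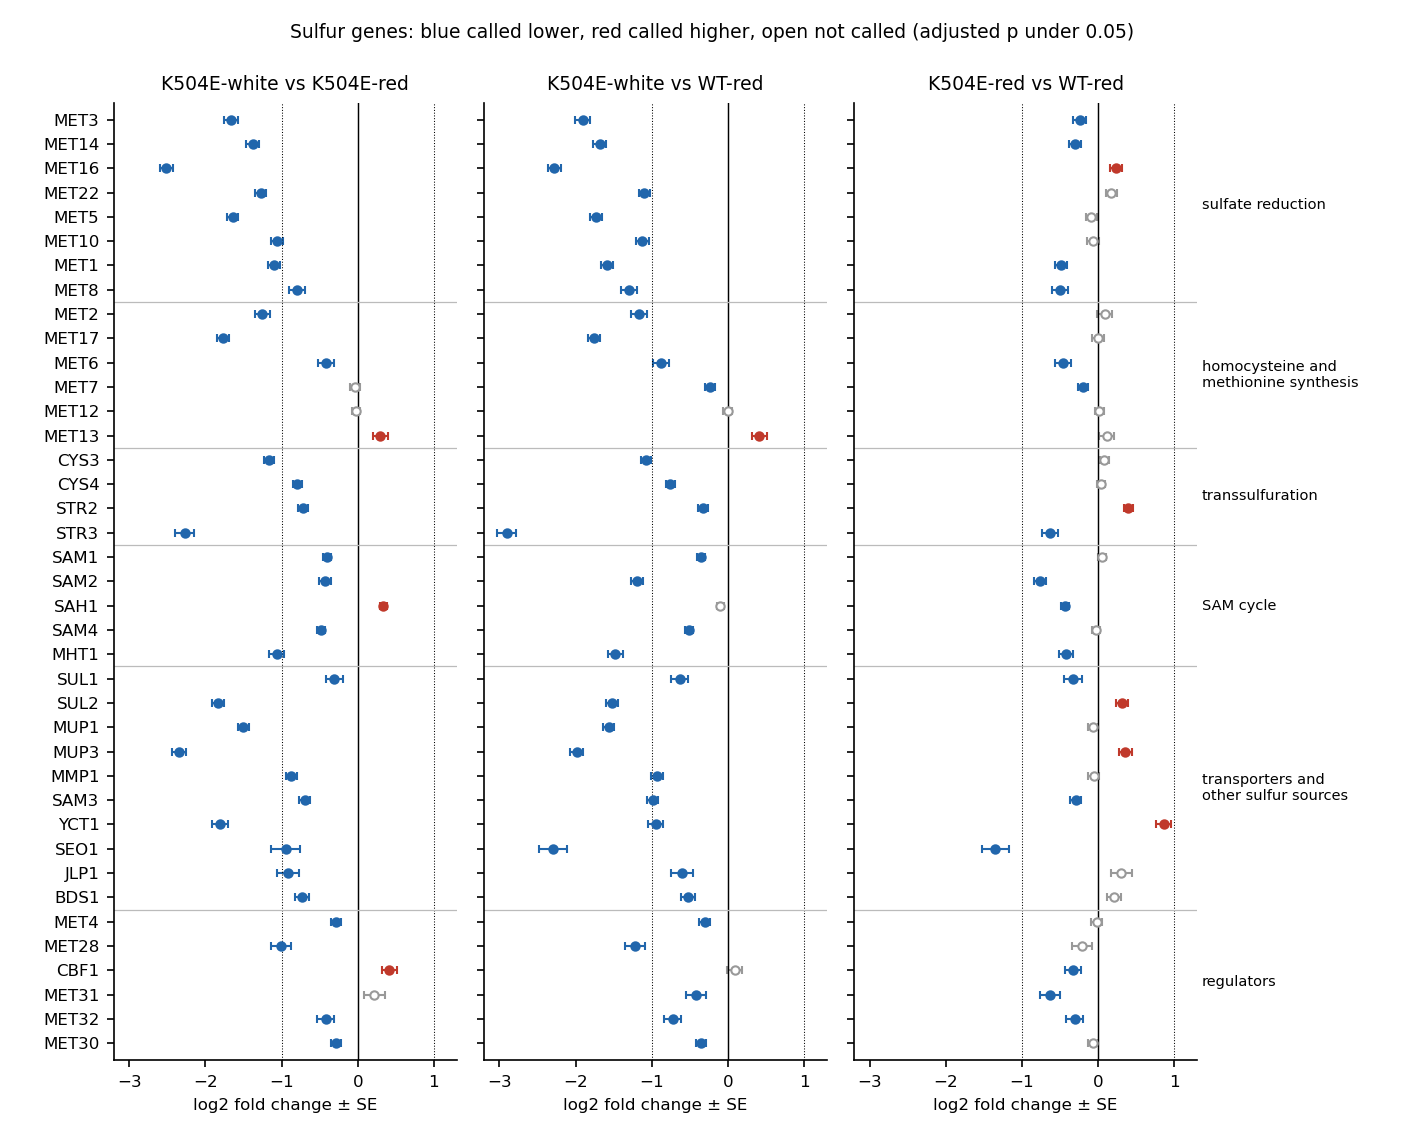
Log2 fold change with its SE (x axis) of each of the 39 sulfur genes (rows, by role), with 1 panel for each comparison, K504E-white with K504E-red, K504E-white with WT-red and K504E-red with WT-red; blue points were called lower, red points higher and open points not called by edgeR over all genes. In the first and second panels 33 and 35 points are blue, and in the third 16 are blue, 5 red and 18 open.

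Summed over the 39 genes, the share of all FPKM was 0.514%, 0.529% and 0.496% in K504E-white, 0.966%, 0.924% and 0.895% in K504E-red and 1.05%, 0.94% and 1.03% in WT-red. The K504E-white libraries lay below all others, and the K504E-red and WT-red libraries overlapped. Among the WT-red libraries, replicate 2 had the lowest share and also the largest normalization factor, 1.04 against 1.008 and 1.015 in the other two. The sum for sulfate reduction was 506 ± 27.7 FPKM in K504E-white, 1422 ± 96.2 in K504E-red and 1533 ± 160 in WT-red (SD, n = 3 each).

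**Figure D2:**
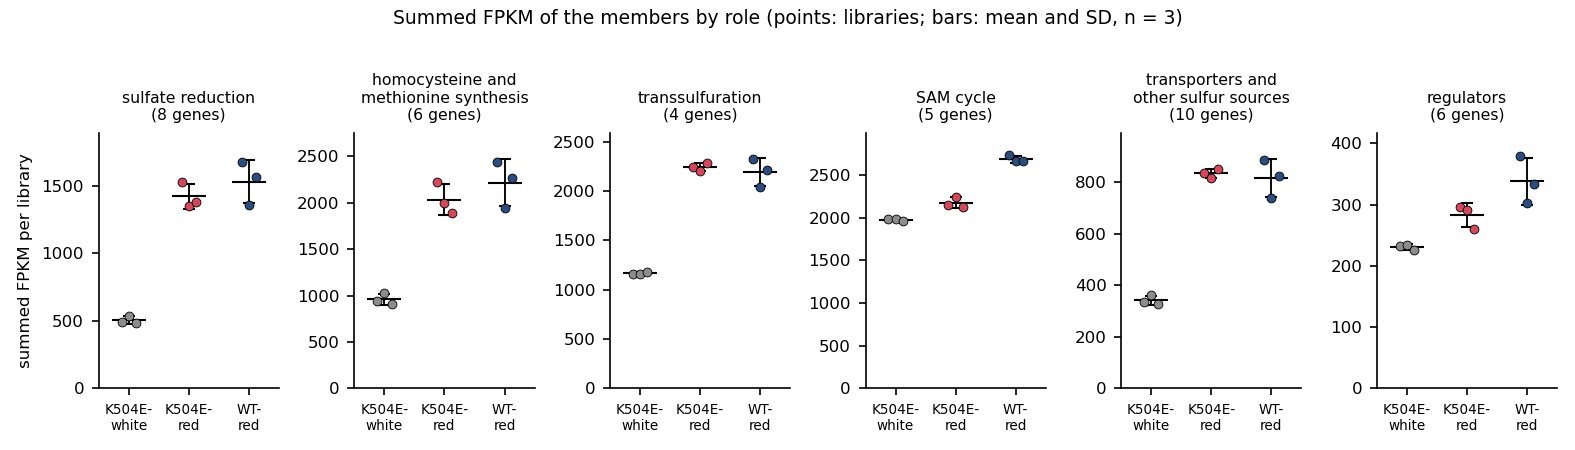
Summed FPKM per library (y axis, from 0) of the genes of each role in K504E-white, K504E-red and WT-red; points are libraries, bars the mean and SD of 3. K504E-white is lowest in each of the 6 panels, and for the SAM cycle its mean is 1973, beside 2173 in K504E-red and 2686 in WT-red.

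All 8 genes of sulfate reduction were called lower in K504E-white against both other groups. Of all genes, 27.3% were called lower against K504E-red and 23.5% against WT-red. Against WT-red all 8 fell at least 2-fold, and against K504E-red 7 did, all but MET8. Falls of that size were called in 1.82% and 2.8% of all genes, in the same order. MET3, encoding the ATP sulfurylase that activates sulfate, had 82.1, 98.4 and 87.3 FPKM in K504E-white, 322, 250.4 and 271 FPKM in K504E-red and 364, 295 and 347 FPKM in WT-red. Every K504E-white library was below the lowest library of the other groups, while K504E-red and WT-red overlapped. The log2 fold change of MET3 was -1.66 (SE 0.0937) for K504E-white over K504E-red and -1.91 (SE 0.0942) against WT-red. In K504E-red against WT-red MET3 was called lower (-0.24, SE 0.0905), and that call was lost without K504E-red replicate 2 or 3 or WT-red replicate 1 or 3 (adjusted p of 0.0609 to 0.112 by edgeR) and by limma on log2 FPKM (adjusted p 0.0522 and 0.053). MET14, the APS kinase gene of the next step, had 109.5, 118 and 103 FPKM in K504E-white, 318, 273 and 265 FPKM in K504E-red and 391, 319 and 357 FPKM in WT-red. Its 3 groups did not overlap, although the highest K504E-red and the lowest WT-red library were less than 1 FPKM apart. The log2 fold change of MET14 was -1.38 (SE 0.0833) and -1.68 (SE 0.0836) for K504E-white over K504E-red and WT-red.

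MET16, which encodes the PAPS reductase that makes sulfite, showed the largest fall of the 39 genes in K504E-white against K504E-red. It lies on W303 contig 74 at 19925 to 20710, minus strand. Its level was 44.5, 42.6 and 37.1 FPKM in K504E-white, 243, 225 and 236 FPKM in K504E-red and 224, 175 and 206 FPKM in WT-red. The K504E-white libraries were lowest, and those of K504E-red lay just above the highest of WT-red. The log2 fold changes were -2.51 (SE 0.0884) for K504E-white over K504E-red, -2.28 (SE 0.088) for K504E-white over WT-red and 0.23 (SE 0.0815) for K504E-red over WT-red. The last of these had an adjusted p of 0.0263 by edgeR and lost its call in several alternatives: leaving out any K504E-red library, WT-red replicate 2, or K504E-white replicate 1 or 2 gave log2 fold changes of 0.135 to 0.225 and adjusted p of 0.056 to 0.159 by edgeR. It was also lost at adjusted p of 0.0503 to 0.0553 by edgeR or limma with looser or stricter count filters and on log2 FPKM.

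MET22 encodes the phosphatase that removes the by-product of PAPS reduction, and had 136, 139 and 139 FPKM in K504E-white, 339.5, 323 and 329 FPKM in K504E-red and 324, 252 and 309 FPKM in WT-red. K504E-white was lower by 2.41-fold than K504E-red and by 2.14-fold than WT-red, without overlap. Between K504E-red and WT-red the groups overlapped narrowly, with a log2 fold change of 0.18 (SE 0.0718) and an adjusted p of 0.0516 by edgeR. That difference was called without WT-red replicate 1 (0.214, adjusted p 0.0217 by edgeR) and without WT-red replicate 3 (0.218, adjusted p 0.0368 by edgeR).

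The sulfite reductase subunits are encoded by MET5 and MET10. MET5 had 29.5, 34.5 and 32.2 FPKM in K504E-white, 107, 95.1 and 96.7 FPKM in K504E-red and 115, 95.8 and 109 FPKM in WT-red, and MET10 had 42.05, 45.9 and 35.9 FPKM in K504E-white, 90.8, 78.3 and 87.4 FPKM in K504E-red and 93.7, 81.9 and 94.8 FPKM in WT-red. For both, K504E-white stood below the other groups and K504E-red overlapped WT-red. The log2 fold changes in K504E-white against K504E-red were -1.64 (SE 0.0744) for MET5 and -1.06 (SE 0.0834) for MET10, and against WT-red they were -1.73 (SE 0.0745) and -1.12 (SE 0.0834). MET1 and MET8 make siroheme, the cofactor of sulfite reductase, and both were called lower also in K504E-red against WT-red. MET1 had 29.98, 33.5 and 29.01 FPKM in K504E-white, 67.7, 65.9 and 63.3 FPKM in K504E-red and 106, 82.8 and 89.8 FPKM in WT-red. MET8 had 21.2, 24.8 and 22.6 FPKM in K504E-white, 44.3, 40.4 and 33.7 FPKM in K504E-red and 59.3, 56.9 and 52.5 FPKM in WT-red. The groups formed 3 separate steps for both genes, lowest in K504E-white and highest in WT-red. The log2 fold changes in K504E-red against WT-red were -0.49 (SE 0.0803) for MET1 and -0.50 (SE 0.105) for MET8, and in K504E-white against WT-red -1.59 (SE 0.0829) and -1.29 (SE 0.108).

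**Figure D3:**
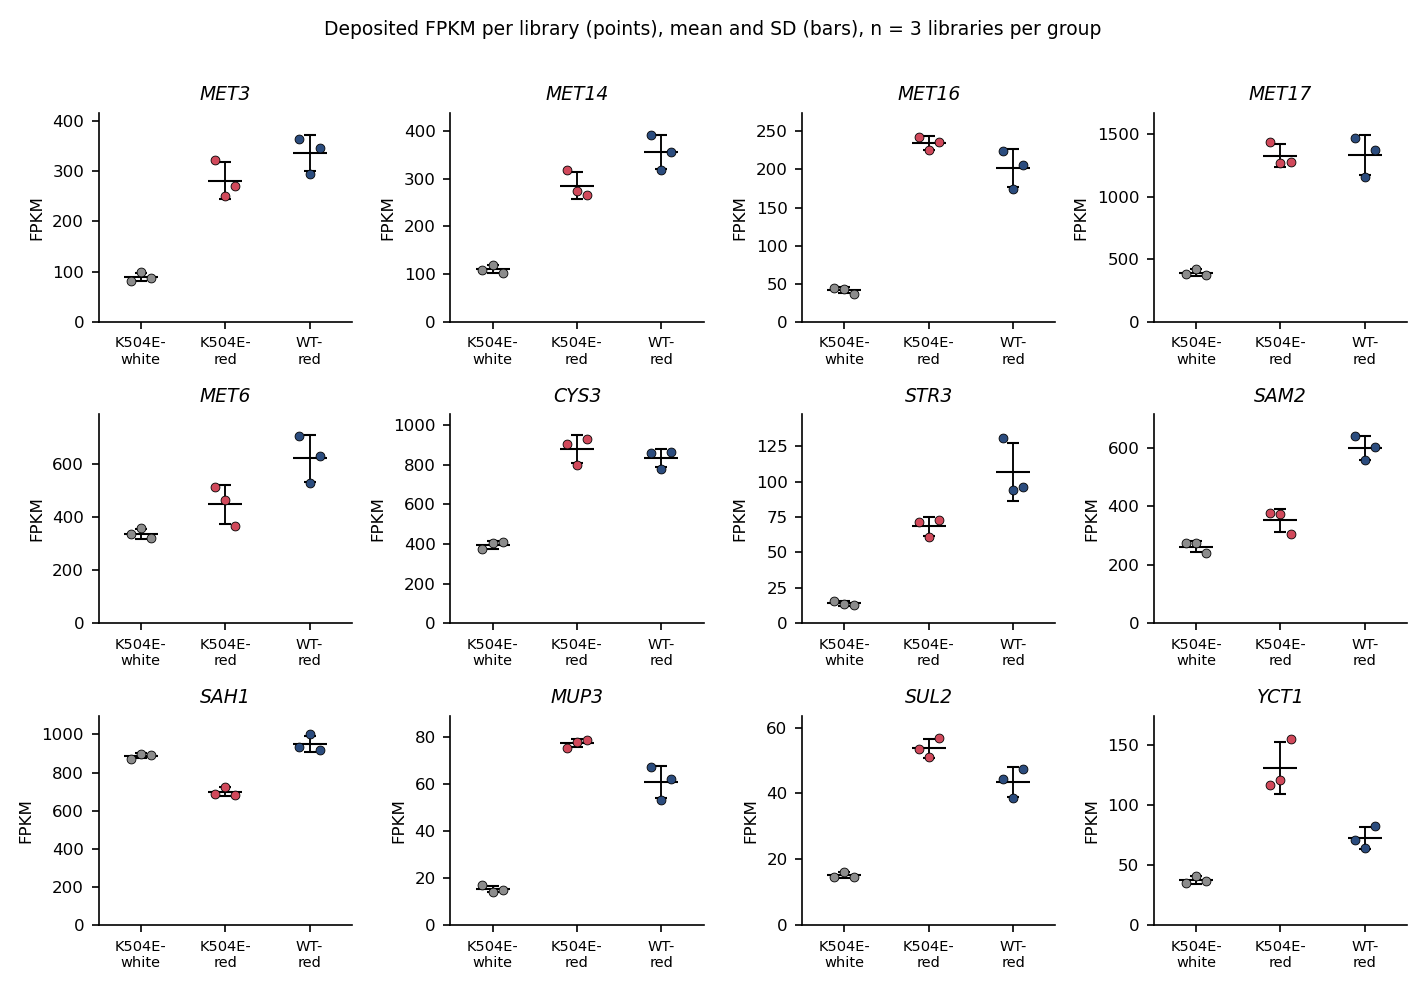
Deposited FPKM per library (y axis, linear from 0) of 12 sulfur genes in K504E-white, K504E-red and WT-red; points are libraries, bars the mean and SD of 3. Points of K504E-white lie below both other groups in every panel but SAH1, whose K504E-red libraries are lowest at 680.4 to 727 FPKM.

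Of the 6 genes of homocysteine and methionine synthesis, 3 were called lower and 1 higher in K504E-white against K504E-red. Against WT-red 4 were called lower and 1 higher. Of all genes, 27.3% were called lower and 27.2% higher in the first comparison, and 23.5% and 23.3% in the second. The 16.7% called higher here was below those shares in both. MET2 encodes the homoserine acetyltransferase and had 28.5, 32.6 and 29.1 FPKM in K504E-white, 81.3, 68.7 and 63.6 FPKM in K504E-red and 73.9, 57.6 and 71.4 FPKM in WT-red. MET17 encodes the enzyme that joins sulfide to O-acetylhomoserine, and was among the most abundant of the list: 382, 424 and 371 FPKM in K504E-white, 1435, 1266 and 1278 FPKM in K504E-red and 1467, 1159 and 1369 FPKM in WT-red. K504E-white lay below the other groups for both genes, and K504E-red and WT-red overlapped. The level of MET17 was 3.4-fold lower in K504E-white than in K504E-red and 3.39-fold lower than in WT-red. Between K504E-red and WT-red its log2 fold change was 0.0063 (SE 0.0789), with an adjusted p of 0.956 by edgeR and a sign that varied with the scaling. In the deposited table MET17 overlaps YLR302C, so reads of the overlap cannot be assigned with certainty.

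MET6, the methionine synthase gene, fell less. It had 337, 359 and 322 FPKM in K504E-white, 516, 464 and 369 FPKM in K504E-red and 706, 530.3 and 633 FPKM in WT-red. The 3 groups did not overlap, and the log2 fold changes were -0.42 (SE 0.104) for K504E-white over K504E-red, -0.88 (SE 0.104) for K504E-white over WT-red and -0.46 (SE 0.104) for K504E-red over WT-red. MET13, MET12 and MET7 act in the folate supply of this step. MET13 averaged 59.5 ± 7.62 FPKM in K504E-white, 48.2 ± 5.12 FPKM in K504E-red and 44.8 ± 5.13 FPKM in WT-red (SD, n = 3 each). It was called higher in K504E-white against WT-red (0.41, SE 0.0999) and against K504E-red (0.29, SE 0.0998). The second call was lost without K504E-white replicate 2 (0.202, adjusted p 0.118 by edgeR) or K504E-red replicate 3 (0.217, adjusted p 0.0899 by edgeR). Its isozyme gene MET12 was called in none of the 3 comparisons, with edgeR log2 fold changes of -0.021 (SE 0.0559), -0.0022 (SE 0.0558) and 0.019 (SE 0.0559). MET7, for folate polyglutamylation, was called lower in both mutant groups against WT-red, with log2 fold changes of -0.23 in K504E-white and -0.20 in K504E-red. The call in K504E-red was lost without K504E-red replicate 1 or WT-red replicate 2 (adjusted p 0.0838 and 0.0683 by edgeR).

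All 4 transsulfuration genes were called lower in K504E-white against both other groups, in both directions of the route between homocysteine and cysteine. Of all genes, 27.3% were called lower against K504E-red and 23.5% against WT-red. STR3, which encodes cystathionine beta-lyase on the way from cysteine to homocysteine, had 16.1, 13.5 and 13.1 FPKM in K504E-white, 71.3, 60.6 and 73.2 FPKM in K504E-red and 131, 93.8 and 96.3 FPKM in WT-red. The groups formed 3 steps without overlap. STR3, on W303 contig 60 at 125 to 1522, plus strand, changed by -2.27 (SE 0.12) for K504E-white over K504E-red, -2.90 (SE 0.121) for K504E-white over WT-red and -0.63 (SE 0.109) for K504E-red over WT-red on the log2 scale, and the second of these was the largest fall of the 39 genes in that comparison. STR2, the cystathionine gamma-synthase gene of the same direction, averaged 54.05 ± 3.18 FPKM in K504E-white, 88.5 ± 4.77 FPKM in K504E-red and 67.7 ± 3.83 FPKM in WT-red. It was called higher in K504E-red against WT-red (0.40, SE 0.0637), and in K504E-white it was called lower than WT-red (-0.32, SE 0.064). As a share of the summed FPKM of STR2 and STR3, STR2 made up 79.2% ± 1.02 in K504E-white, 56.5% ± 2.62 in K504E-red and 39.1% ± 3.21 in WT-red (SD, n = 3 each).

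In the direction from homocysteine to cysteine, CYS4 encodes cystathionine beta-synthase and CYS3 cystathionine gamma-lyase. CYS4, the most abundant gene of the list by mean FPKM, had 715, 683 and 706 FPKM in K504E-white, 1186, 1254 and 1183 FPKM in K504E-red and 1265, 1099 and 1189 FPKM in WT-red. CYS3 had 374, 403 and 408 FPKM in K504E-white, 903, 798 and 931 FPKM in K504E-red and 858, 781 and 864 FPKM in WT-red. K504E-white lay below the other groups for both, which overlapped each other. The log2 fold changes in K504E-white were -0.79 (SE 0.0573) and -1.16 (SE 0.065) against K504E-red, for CYS4 and CYS3 in that order, and -0.75 (SE 0.0572) and -1.08 (SE 0.0649) against WT-red.

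Genes of the SAM cycle did not move as one. SAM1 and SAM2 encode SAM synthetases whose S288C coding sequences are 83.6% identical over 1141 aligned bases. SAM1 had 446, 469.7 and 478 FPKM in K504E-white, 579.8, 616 and 635 FPKM in K504E-red and 606, 570.1 and 601 FPKM in WT-red. SAM2 had 275, 274 and 239 FPKM in K504E-white, 378, 372 and 306 FPKM in K504E-red and 639, 557 and 604 FPKM in WT-red. K504E-white was lowest for both, but SAM2 in K504E-red also lay below WT-red without overlap (-0.76, SE 0.0785), whereas SAM1 overlapped between those groups (0.055, SE 0.0527, adjusted p 0.413 by edgeR). SAM1 made up 63.9% ± 2.48 of the summed FPKM of the pair in K504E-white, 63.5% ± 3.62 in K504E-red and 49.7% ± 0.966 in WT-red (SD, n = 3 each). How the counting split reads between the pair was not given in the sources used here.

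SAH1 encodes S-adenosylhomocysteine hydrolase, which clears the by-product of methylation, and was one of the 3 genes called higher in K504E-white against K504E-red. It had 873, 899.9 and 893 FPKM in K504E-white, 689.8, 727 and 680.4 FPKM in K504E-red and 936, 999.9 and 920.2 FPKM in WT-red. K504E-red was the lowest group, with a log2 fold change of -0.43 (SE 0.0501) against WT-red. K504E-white differed from WT-red by -0.097 (SE 0.05) on the log2 scale, with an adjusted p of 0.124 by edgeR. That difference was called lower, at adjusted p of 0.0413 to 0.0494 by edgeR, with looser or stricter count filters, or without either K504E-red replicate 3 or WT-red replicate 1. SAM4 and MHT1 encode homocysteine methyltransferases that use SAM and S-methylmethionine. MHT1 had 25.4, 20.8 and 24.4 FPKM in K504E-white, 50.02, 48.4 and 48.1 FPKM in K504E-red and 73.9, 57.9 and 65.7 FPKM in WT-red, in 3 steps without overlap. The more abundant SAM4 averaged 333 ± 22.9 FPKM in K504E-white, 463 ± 19.98 FPKM in K504E-red and 476 ± 3.98 FPKM in WT-red, with log2 fold changes of -0.48 (SE 0.0552) and -0.51 (SE 0.0552) for K504E-white over K504E-red and WT-red.

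All 10 genes for transport and other sulfur sources were called lower in K504E-white against both other groups. Of all genes, 27.3% were called lower against K504E-red and 23.5% against WT-red. In each comparison 4 of the 10 fell at least 2-fold, but not the same 4. SUL2, MUP1 and MUP3 did so in both, YCT1 only against K504E-red and SEO1 only against WT-red. Falls of that size were called in 2.8% of all genes against K504E-red and 1.82% against WT-red. MUP1, the high-affinity methionine permease gene, had 104, 110.4 and 105 FPKM in K504E-white, 312, 305 and 282 FPKM in K504E-red and 352, 284 and 311 FPKM in WT-red. MUP3, the low-affinity methionine permease gene on W303 contig 252 at 82186 to 83826, minus strand, had 16.9, 14.3 and 14.9 FPKM in K504E-white, 75.6, 77.9 and 79.03 FPKM in K504E-red and 67.2, 53.4 and 62.1 FPKM in WT-red. Both were lowest in K504E-white. MUP1 overlapped between K504E-red and WT-red, and MUP3 was higher in K504E-red than in WT-red in all libraries. The log2 fold changes of MUP3 were -2.35 (SE 0.0869) for K504E-white over K504E-red, -1.99 (SE 0.0864) for K504E-white over WT-red and 0.36 (SE 0.0805) for K504E-red over WT-red. For MUP1 they were -1.50 (SE 0.0694), -1.56 (SE 0.0695) and -0.062 (SE 0.0675) in the same order.

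The sulfate permease genes differed from each other. SUL2 had 14.6, 16.2 and 14.7 FPKM in K504E-white, 53.4, 51 and 56.7 FPKM in K504E-red and 44.5, 38.6 and 47.4 FPKM in WT-red. Its K504E-white libraries were lowest and its K504E-red libraries highest, with log2 fold changes of -1.83 (SE 0.0799) for K504E-white over K504E-red, -1.52 (SE 0.0795) for K504E-white over WT-red and 0.32 (SE 0.0761) for K504E-red over WT-red. SUL1 had 11.5, 11.8 and 10.2 FPKM in K504E-white, 14.4, 11.5 and 15.1 FPKM in K504E-red and 15.1, 19.9 and 17 FPKM in WT-red, with 1 K504E-red library inside the range of K504E-white. It was called lower in K504E-red against WT-red (-0.33, SE 0.114), a call lost without K504E-red replicate 2 or WT-red replicate 2 (adjusted p 0.0852 and 0.157 by edgeR). Its call in K504E-white against K504E-red (-0.31, SE 0.115, adjusted p 0.0322 by edgeR) was lost without K504E-white replicate 1 or 3 or K504E-red replicate 1 or 3, at adjusted p of 0.0544 to 0.142 by edgeR, and by limma on log2 FPKM at 0.0793 and 0.0807. SUL1 made up 42.3% ± 1.5 of the summed FPKM of the pair in K504E-white, 20.2% ± 1.58 in K504E-red and 28.6% ± 4.71 in WT-red (SD, n = 3 each).

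YCT1 encodes a cysteine transporter and had 35.3, 40.9 and 36.5 FPKM in K504E-white, 116, 121 and 155 FPKM in K504E-red and 70.97, 64.6 and 82.2 FPKM in WT-red. K504E-red was highest and K504E-white lowest, and YCT1 showed the largest rise of the 39 genes in K504E-red against WT-red, 0.86 (SE 0.102), beside -1.81 (SE 0.105) for K504E-white over K504E-red. SEO1 belongs to the allantoate permease family. It had 4.02, 6.36 and 4.14 FPKM in K504E-white, 11.8, 6.87 and 9.1 FPKM in K504E-red and 26.9, 21.7 and 22.8 FPKM in WT-red, the lowest levels of the list with those of JLP1 and SUL1. The 3 groups did not overlap for SEO1, with log2 fold changes of -1.35 (SE 0.179) for K504E-red over WT-red and -0.95 (SE 0.189) for K504E-white over K504E-red. It lies on W303 contig 1 at 2710 to 4491, plus strand. SAM3, the SAM permease gene, had 98.7, 112 and 96.1 FPKM in K504E-white, 168, 160.3 and 165 FPKM in K504E-red and 226, 182 and 200.5 FPKM in WT-red, again in 3 steps. MMP1, for S-methylmethionine uptake, averaged 20.4 ± 1.18 FPKM in K504E-white, 37.04 ± 2.99 FPKM in K504E-red and 38.8 ± 1.74 FPKM in WT-red. JLP1, a sulfonate dioxygenase gene, and BDS1, a sulfatase gene, were called lower in K504E-white against K504E-red (-0.91 and -0.73) and against WT-red (-0.61 and -0.52), and neither was called in K504E-red against WT-red. Without WT-red replicate 3, BDS1 was called higher there (0.265, adjusted p 0.0399 by edgeR).

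The 6 regulators had a median log2 fold change of -0.29 in K504E-white against K504E-red and -0.38 against WT-red, where the 8 genes of sulfate reduction had -1.33 and -1.64. In the first comparison 4 regulators were called lower and 1 higher, beside 27.3% and 27.2% of all genes. In the second 5 were called lower and 0 higher, beside 23.5% and 23.3%. MET28 encodes a leucine zipper cofactor of Met4 and had 38.1, 43.8 and 41.7 FPKM in K504E-white, 93.3, 82.7 and 71.4 FPKM in K504E-red and 119, 76.3 and 93.5 FPKM in WT-red. K504E-white was lowest, with log2 fold changes of -1.01 (SE 0.134) against K504E-red and -1.22 (SE 0.134) against WT-red. In the deposited table the description of this locus carries the name of YIR017W-A, a gene model on the opposite strand, and the use of strand in counting was not given in the sources used here, so its value is uncertain. Without WT-red replicate 2 it was also called lower in K504E-red against WT-red (-0.358, adjusted p 0.0289 by edgeR). MET32, a zinc finger gene, had 42.1, 45.8 and 39.6 FPKM in K504E-white, 53.5, 60.6 and 55.4 FPKM in K504E-red and 83.3, 63.7 and 64.5 FPKM in WT-red, in 3 groups without overlap. Its call as lower in K504E-red against WT-red (-0.31, SE 0.109) was lost without K504E-red replicate 1 or WT-red replicate 1 (adjusted p 0.0837 and 0.122 by edgeR). Its relative MET31 averaged 30.6 ± 2.54 FPKM in K504E-white, 26.2 ± 3.2 FPKM in K504E-red and 40.98 ± 5.91 FPKM in WT-red, and was called lower in K504E-red against WT-red (-0.63, SE 0.137) and likewise in K504E-white (-0.42, SE 0.135). The call in K504E-white was lost without K504E-white replicate 3, WT-red replicate 1 or WT-red replicate 3, at adjusted p of 0.0566 to 0.0598 by edgeR.

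MET4, the activator gene itself, averaged 40.2 ± 1.68 FPKM in K504E-white, 48.7 ± 4.17 FPKM in K504E-red and 49.7 ± 1.61 FPKM in WT-red (SD, n = 3 each). Its log2 fold change was -0.29 (SE 0.0691) for K504E-white over K504E-red and -0.30 (SE 0.069) against WT-red, both called lower. MET30, the gene of its ubiquitin ligase subunit, was called lower by similar amounts, -0.29 (SE 0.065) and -0.35 (SE 0.0649). CBF1, a helix-loop-helix factor that also acts at centromeres, averaged 49.6 ± 2.73 FPKM in K504E-white, 36.99 ± 6.6 FPKM in K504E-red and 46.7 ± 1.83 FPKM in WT-red. It was called higher in K504E-white against K504E-red (0.42, SE 0.102) and was below WT-red in K504E-red, called lower (-0.33, SE 0.102); the second call was lost without WT-red replicate 3 (adjusted p 0.0526 by edgeR).

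Cbf1 binds the letters CACGTG, and Met31 and Met32 bind a core with TGTGGC. Both were searched on both strands in the 500 bases before the start codon in the S288C reference genome, which differs from the W303 assembly of the counts. CACGTG was found before 22 of the 39 genes (56.4%) and before 6.38% of 5159 genes with such a window. The letters TCACGTG, which contain CACGTG, were found before 21 of the 39 (53.8%) and before 4.75% of all. TGTGGC was found before 26 of the 39 (66.7%) and before 14.4% of all. MMP1 and MHT1 are neighbours that point away from each other, so the TGTGGC sites between them were counted for both genes. CACGTG stood before all 8 genes of sulfate reduction, 5 of 6 regulators and 2 of 10 transporters and other sulfur sources. TGTGGC stood before 9 of those 10. The genes were chosen by name from the pathway that these factors control. Shares above those of all genes therefore follow in part from the choice.

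The median log2 fold change in K504E-white against K504E-red was -1.25 for the 15 genes with both motifs and -0.91 for the 11 with TGTGGC alone. It was -0.79 for the 7 with CACGTG alone and -0.36 for the 6 with neither. In that order the ranges overlapped, from -2.513 to -0.285, -2.273 to 0.295, -1.767 to 0.416 and -0.722 to 0.214. Against WT-red the medians in K504E-white were -1.19, -0.95, -0.88 and -0.38 in the same order. Motif and role were not separated, as 6 of the 8 genes of sulfate reduction had both motifs. The 7 genes with CACGTG alone were MET1, MET8, MET17, MET6, CYS4, SAH1 and CBF1, and 2 of them, SAH1 and CBF1, were called higher in K504E-white against K504E-red. That is 28.6% of the 7, near the 27.2% of all genes called higher in that comparison. The 6 genes with neither were MET7, STR2, SAM1, SAM4, SUL1 and MET31. In K504E-red against WT-red the medians were -0.062, -0.056, -0.43 and -0.11. MET16, for example, had CACGTG beginning 178 bases and TGTGGC 157 bases before the start codon. A match is a description of letters in this window and not of binding.

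Of the 39 genes, YCT1, JLP1, MMP1 and MHT1 lie in 1 stretch of 8 neighbouring genes on W303 contig 4, from 63809 to 78874: YCT1, YLL056C, JLP1, HSU1, YLL059C, GTT2, MMP1 and MHT1. All 8 were called lower in K504E-white against both K504E-red and WT-red, where 27.3% and 23.5% of all genes were called lower. The edges of the stretch were set by the list members YCT1 and MHT1. Beside YCT1, YLL054C was also called lower in K504E-white, -0.53 against K504E-red and -0.50 against WT-red. Beside MHT1, AYT1 was called in neither. GTT2, a glutathione transferase gene and not a member of the list, had the lowest log2 fold changes of the 8, -4.74 (SE 0.0856) against K504E-red and -3.72 (SE 0.0823) against WT-red. In K504E-red against WT-red, YCT1 (0.86), YLL059C (0.84) and GTT2 (1.01) were called higher and MHT1 (-0.42) lower, and the other 4 genes were not called. The stretch was singled out after the values had been seen. SAM3 and SAM4 are also neighbours, on W303 contig 217 at 5355 to 7118 and 7504 to 8481, both on the plus strand.

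**Figure D4:**
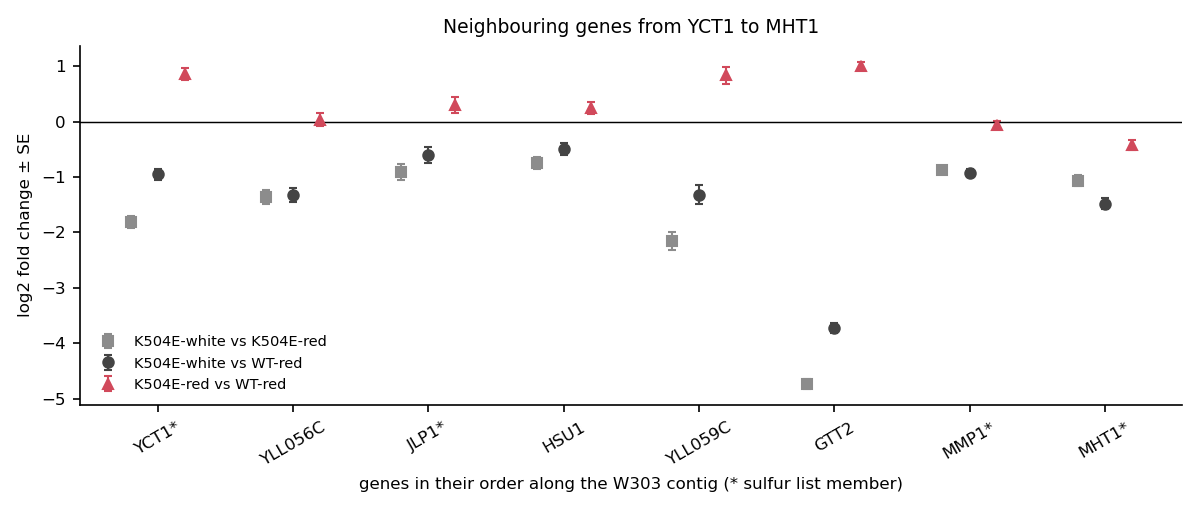
Log2 fold change with its SE (y axis) of 8 neighbouring genes in their order along a W303 contig (x axis; sulfur list members starred) for K504E-white over K504E-red, K504E-white over WT-red, and K504E-red over WT-red. All 8 lie below 0 in both comparisons of K504E-white, with GTT2 lowest at -4.74.

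Genes that feed the pathway or draw on it were read from further lists of 45 genes, all present. In K504E-white against K504E-red, 25 of the 45 were called lower and 9 higher, in K504E-white against WT-red 24 lower and 4 higher, and in K504E-red against WT-red 10 lower and 16 higher. These are 55.6% lower and 20% higher, beside 27.3% and 27.2% of all genes, in the first comparison, 53.3% and 8.89%, beside 23.5% and 23.3%, in the second, and 22.2% and 35.6%, beside 21.7% and 25.8%, in the third, where the share called lower was near that of all genes. All 3 genes of homoserine supply were called lower in both comparisons of K504E-white. HOM3, the aspartate kinase gene, averaged 108 ± 8.76 FPKM in K504E-white, 312 ± 18.3 FPKM in K504E-red and 294 ± 36.9 FPKM in WT-red, with log2 fold changes of -1.54 (SE 0.0815) and -1.44 (SE 0.0813) in K504E-white. Of 6 genes that turn cysteine into glutathione or back, 4 and 5 were called lower in these comparisons. GSH1, the first enzyme of glutathione synthesis and a known Met4 target, had 77.8, 76.2 and 73.7 FPKM in K504E-white, 364, 335 and 370.2 FPKM in K504E-red and 284, 278 and 298 FPKM in WT-red. It was 4.73-fold lower in K504E-white than in K504E-red and 3.77-fold lower than in WT-red.

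Thioredoxin supplies electrons to PAPS reductase. TRX2 averaged 1247 ± 74.3 FPKM in K504E-white, 3536 ± 174 FPKM in K504E-red and 2510.0 ± 188 FPKM in WT-red, and all 3 genes of that list were called lower in K504E-white against K504E-red and 2 of 3 against WT-red. Among all genes, 27.3% and 23.5% were called lower in these comparisons, in the same order. Of 11 genes for other sulfur sources and low-sulfur conditions, 6 were called lower and 3 higher in K504E-white against K504E-red, and 5 lower and 3 higher against WT-red. The 27.3% of them called higher in each comparison is near the 27.2% and 23.3% of all genes. Those at least 2-fold lower were GTO1, an omega-class glutathione transferase gene (-2.13, SE 0.0954 and -1.76, SE 0.095), and, against K504E-red, the permease gene AGP3 (-1.07, SE 0.122). IRC7, TUM1 and GNP1 were called higher in both.

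Of 5 genes that supply folate to methionine synthase, 3 were called higher and 2 lower in K504E-white against K504E-red, and 1 higher and 1 lower against WT-red. Lists this short are given as counts, beside 27.3% of all genes called lower and 27.2% higher in the first comparison and 23.5% and 23.3% in the second, and the folate counts against WT-red, 20% each way, are near those shares. SHM2, cytosolic serine hydroxymethyltransferase, which loads folate with the carbon unit that methionine synthase uses, had 626, 624 and 636 FPKM in K504E-white, 183, 174 and 170.3 FPKM in K504E-red and 136, 136 and 162 FPKM in WT-red. K504E-white was highest, with log2 fold changes of 1.83 (SE 0.0668) against K504E-red and 2.12 (SE 0.0675) against WT-red. Of the 9 methionine salvage genes, 4 were called lower and 1 higher in K504E-white against K504E-red, and 5 lower and 0 higher against WT-red, 0 of them at least 2-fold. MEU1, the first enzyme of salvage, was the gene called higher (0.57, SE 0.0639). Of the 4 polyamine genes, 1 (SPE3) was called lower in K504E-white against K504E-red and SPE1 and SPE2 higher. These are 25% lower, near the 27.3% of all genes, and 50% higher. Against WT-red only SPE3 was called, also lower, and its 25% is near the 23.5% of all genes. For the Met30 ligase partners, CDC53 and HRT1 of 4 were called lower in both comparisons of K504E-white.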

How the data were processed

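RNA was sequenced from 9 cultures, 3 per group, grouped by sample title. Per the labels, libraries were made by a sequencing provider after poly(A) enrichment. The authors deposited gene counts, whole numbers without normalization, and FPKM values per library and as group means. Each FPKM equals the count over gene length and over a scaled total that was 0.986 to 1.03 times the count sum. Per the file headers, gene positions refer to W303 contigs; the aligner, counter, versions and use of strand are not given in the sources used here. Gene symbols came from RefSeq R64 of S288C (5162 of 5205 genes matched by locus tag), used for names, motif letters and sequence identity (BLAST 2.17.0) only. Counts were filtered with filterByExpr (5172 genes retained), scaled with TMM and tested with edgeR 4.0.16 (R 4.3.3), quasi-likelihood, two-sided, all 9 libraries in 1 model with group as the only term, Benjamini-Hochberg over all genes. The code was tested on simulated data. Alternatives used DESeq2 1.42.0 and limma 3.58.1. SE came from the F statistic. The 39 genes, the 45 further genes and the tests were chosen with earlier results of these data known. The naming rule was: every member; library values for members called with at least 1 on the log2 scale and for the 2 most abundant of each role; further pathway genes where called with at least 1, others as examples. For the roles, SUL1 and SUL2 were counted with the transporters. Labels call the replicates biological. No promoter or protein sequence is printed, since no sequence table of W303 was used here.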

Additional observations from a re-analysis of the deposited data

Results flagged for a closer look

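The white and red mutant groups differed from WT-red in opposite directions for 5 genes, each of them called lower in K504E-white against WT-red, higher in K504E-red against WT-red, and lower in K504E-white against K504E-red by edgeR with adjustment over all genes. The last of these contrasts is the test of the difference, and it nearly follows from the other calls because the contrasts share libraries. Its log2 fold change was -2.51 for MET16, -0.72 for STR2, -1.83 for SUL2, -2.35 for MUP3 and -1.81 for YCT1. The rise of MET16 in K504E-red did not hold in every alternative. The rises of STR2, SUL2, MUP3 and YCT1 were called in all 18. How common this pattern is among all genes was not counted.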

How the results depend on the processing

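Under 9 other settings (scalings, count filters, DESeq2, limma on log2 FPKM, a fit of only the groups compared and a replicate block) and 9 fits without 1 library each, the number of sulfur genes called lower was 32 to 33 in K504E-white against K504E-red, 34 to 36 in K504E-white against WT-red and 14 to 16 in K504E-red against WT-red. The number called higher was 2 to 3, 1, and 4 to 7 in the same order, and all these counts stayed within 1.5 times their value. Over the same settings, 2510 to 2913, 2113 to 2511 and 2019 to 2493 of all genes were called in either direction. The main fit tested 5172 genes. The median log2 fold change of the sulfur genes ranged over the leave-one-out fits from -0.916 to -0.804, from -1.091 to -0.97 and from -0.134 to -0.062; the value of -1.091 came without K504E-white replicate 2, and the cause was not tested. With the replicate block, 33, 35 and 16 genes were called lower. Same-numbered libraries did not deviate together, with correlations of -0.11 to 0.0274, so the numbers were not taken as pairs; the block added the call of MET22 in K504E-red against WT-red (0.181, adjusted p 0.0354 by edgeR) and changed no other. Of 702 values of single genes per comparison, 692, 694 and 642 kept their sign and call, and 8, 3 and 23 lost the call. A further 0, 4 and 5 gained a call, and 2, 1 and 32 changed sign. Signs changed for values that were not called. In K504E-red against WT-red, MET17 had -0.005 with DESeq2 size factors and with the DESeq2 Wald test, -0.021 with upper quartile scaling and with the groups compared only, -0.03 and -0.029 with the looser and stricter filter, and -0.001 by limma with either pseudocount, and without single libraries -0.09 to 0.047. MET12 had -0.009 with upper quartile scaling and with the groups compared only, -0.018 and -0.017 with the filters, and -0.043 to 0.062 without single libraries. Without 1 library, the range was -0.023 to 0.135 for MET2, -0.138 to 0.006 for MMP1, -0.025 to 0.055 for CYS4, -0.008 to 0.089 for SAM1 and -0.09 to 0.012 for MET4. In K504E-white, it was -0.051 to 0.005 against K504E-red and -0.062 to 0.041 against WT-red for MET12, and -0.077 to 0.045 against K504E-red for MET7.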
